A study of Mus musculus with 4 samples.

Results

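Anks1, Gcnt2, Sorbs3 and Kcnip3 are 4 genes at which long regions differed in DNA methylation between 2 groups of mouse microglia, labelled WT and IRF8KO after the transcription factor IRF8. The genes were chosen by their values in the authors' deposited region table, as genes with long, CpG-rich changed regions. Their longest regions stand near the top by area score, which sums the test statistics over the cytosines of a region. The members are the rows of both deposited tables that lie inside these genes or within 10000 bp of them, which are 10 of 3389 regions and 871 of 269406 listed positions. Among 21951 protein-coding genes, 2017 (9.19%) had a region within 10000 bp, and the 4 genes have one by the way they were chosen.

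The study compared 2 groups of 2 samples of sorted microglia by whole-genome bisulfite sequencing, in which unmethylated cytosines are converted and methylated ones are not. All mice were of the C57BL/6J strain, untreated and 3 months of age, per the labels. The labels do not give the way in which Irf8 was inactivated, the cells in which it was, the sex, or whether each sample came from 1 animal, so the deposited p-values may measure only the spread between these libraries. Both tables hold the authors' comparison of the groups with no value per sample and no read counts, so the depth behind each level is unknown. No column name says which genotype is group 1 and which is group 2, so they are called the first and the second group here. A difference is always the level of the first group minus that of the second, on a scale from 0 to 1. The labelled cell type could not be checked against marker genes, since no expression was measured here.

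Many mammalian genes have several promoters, and each promoter gives a transcript with its own first exon. CpG-rich promoters are usually kept free of methylation, and methylation at a start often goes with its silence, whereas the bodies of genes are commonly methylated. Anks1 (also called Odin) encodes an adaptor with ankyrin repeats, SAM domains and a phosphotyrosine-binding domain that binds Eph and EGF receptors. Gcnt2 encodes the enzyme that puts branches on poly-N-acetyllactosamine chains, and its alternative first exons encode much of the catalytic part. Sorbs3 encodes vinexin, an adaptor that binds vinculin at cell adhesions and exists in a long and a short form. Kcnip3 encodes a calcium-binding protein known as calsenilin, DREAM or KChIP3, which binds Kv4 potassium channels and represses transcription of Pdyn.

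The 4 longest regions are shown by the stretch of 200 bases, outside annotated UTRs, with the most listed positions of a false discovery rate (FDR) under 0.05. The sequences are of GRCm38, printed 5′ to 3′ along the gene, with CpGs in capitals, and are shown because most listed positions of the stretches lie on these CpGs.
Anks1, chr17:28008184-28008383, plus strand: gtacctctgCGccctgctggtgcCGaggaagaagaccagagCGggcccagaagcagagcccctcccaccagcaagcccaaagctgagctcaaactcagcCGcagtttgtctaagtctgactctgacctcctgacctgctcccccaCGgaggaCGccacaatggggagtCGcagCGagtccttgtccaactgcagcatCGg
Gcnt2, chr13:40918518-40918717, plus strand: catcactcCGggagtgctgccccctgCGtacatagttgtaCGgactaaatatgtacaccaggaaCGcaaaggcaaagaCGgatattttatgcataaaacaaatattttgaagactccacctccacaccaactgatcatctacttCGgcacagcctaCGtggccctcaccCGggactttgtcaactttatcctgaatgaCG
Sorbs3, chr14:70206071-70206270, minus strand: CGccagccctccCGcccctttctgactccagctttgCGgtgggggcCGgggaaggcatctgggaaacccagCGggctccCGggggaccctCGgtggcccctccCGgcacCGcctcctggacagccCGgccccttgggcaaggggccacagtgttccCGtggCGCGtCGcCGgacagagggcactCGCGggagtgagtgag
Kcnip3, chr2:127481882-127482081, minus strand: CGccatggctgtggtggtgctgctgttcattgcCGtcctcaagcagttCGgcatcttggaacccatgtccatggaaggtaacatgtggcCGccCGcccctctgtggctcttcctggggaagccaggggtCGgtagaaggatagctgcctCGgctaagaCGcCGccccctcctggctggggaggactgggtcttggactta
Every CpG printed was listed, and the levels given are the lowest and highest of all listed positions of the stretch in the authors' deposited table. The Anks1 stretch holds 9 CpGs in coding sequence, with levels from 0.750 to 0.818 in the first group, against 0.198 to 0.307 in the second. The Gcnt2 stretch holds 9 CpGs in coding sequence, with levels from 0.548 to 0.669 in the first group, against 0.122 to 0.147 in the second. The Sorbs3 stretch holds 17 CpGs and ends 49 bp before the start of a transcript. Its levels lay between 0.100 and 0.107 in the first group, against 0.445 to 0.559 in the second. The Kcnip3 stretch holds 9 CpGs and crosses from the coding end of a first exon into the intron. Its levels were 0.223 to 0.336 in the first group against 0.686 to 0.748 in the second. In none of the 4 stretches did the levels of the groups overlap. Stretches and regions were chosen by these differences, so the lack of overlap follows largely from the choice.

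Each of the 4 longest regions lay at or within 1000 bp of a transcript start inside the gene. That start was 5967 bp from the most upstream one in Sorbs3, 39595 bp in Kcnip3, 57896 bp in Gcnt2 (Gcnt2-205) and 98039 bp in Anks1. In Sorbs3 and Kcnip3 a start lay inside the region, and in Anks1 and Gcnt2 the region began 517 and 722 bp after a start, within the first exon of that transcript. Among all 3389 regions, 46 (1.36%) held a start of a protein-coding gene more than 1000 bp from the gene's outermost start, and 198 (5.84%) lay within 1000 bp of one. Among the 253 regions with at least 30 cytosines these were 16 (6.32%) and 39 (15.4%). The genes were not drawn at random from those regions, and no test was made on 4 genes.

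**Figure D1:**
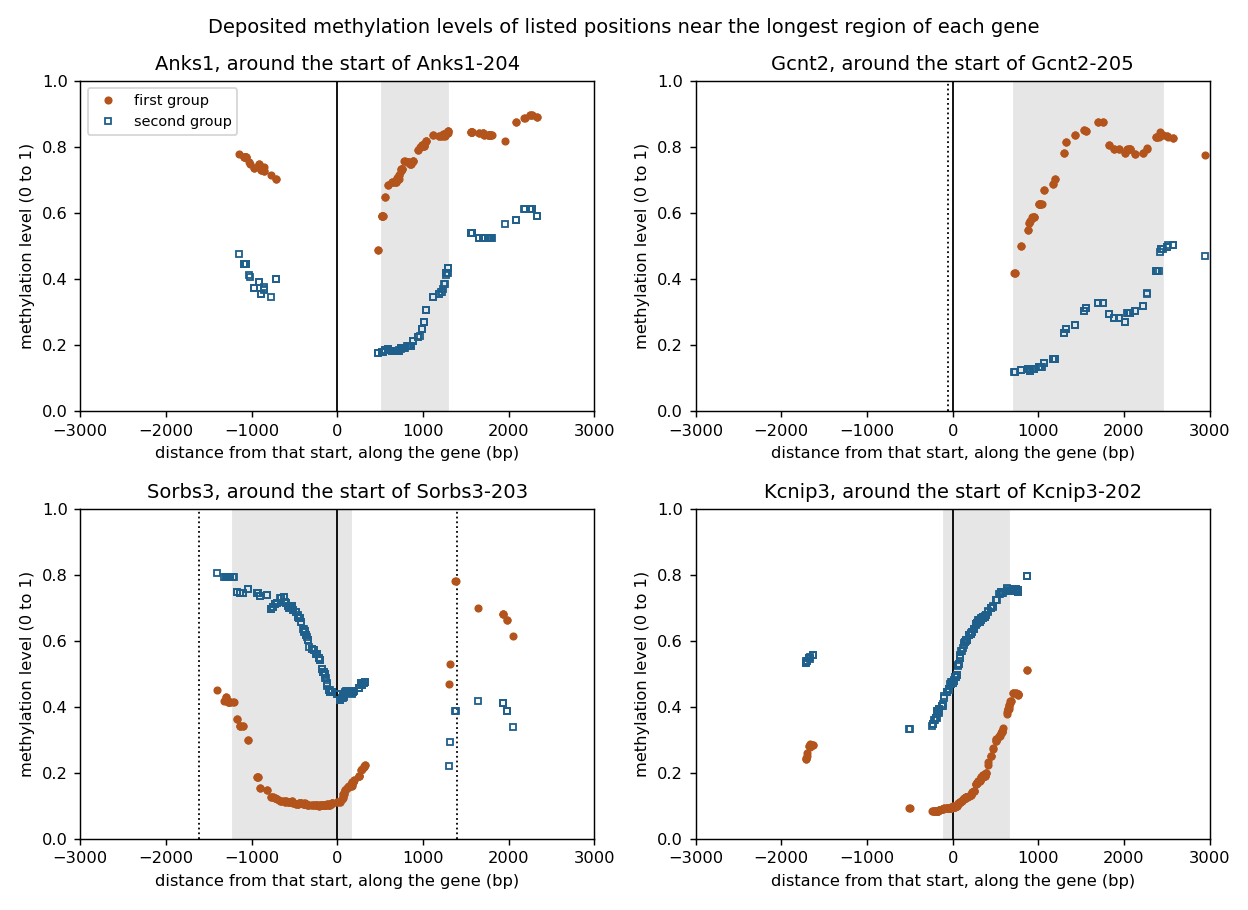
Methylation levels (0 to 1) of the listed positions against the distance in bp from the nearest transcript start, along the gene, in the first group (filled circles) and the second group (open squares). Grey bands are the longest regions, solid lines the start named above each panel and dotted lines other annotated starts; in Anks1 and Gcnt2 the first group is higher throughout the band, and in Sorbs3 and Kcnip3 it is lower throughout.

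Anks1 (ENSMUSG00000024219.16) spans 27909306 to 28062775 on the plus strand of chromosome 17. Its longest region, 28007862 to 28008641, is 780 bp long with 76 cytosines, and the authors' deposited table gives levels of 0.756 in the first and 0.255 in the second group, a difference of 0.501. All 76 listed positions had an FDR under 0.05, against 18.7% of all listed positions (10.9% higher and 7.84% lower in the first group). The median deposited standard error of their differences was 0.0960. Anks1 was chosen for this region, so its high share past the FDR limit follows from the choice. The region covers 571 bp of an exon that is coding in the long Anks1 transcripts, followed by 209 bp of intron. The outermost long transcript starts 98039 bp upstream of Anks1-204, a shorter protein-coding transcript that starts at 28007345 and has this exon as the end of its first exon. In Anks1-204 the first 184 bp of the region are UTR and only the rest of the exon is coding.

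Levels in Anks1 were higher at the 3′ end of the region than at its 5′ end in both groups. At the 5′ end the levels were 0.593 in the first group against 0.179 in the second, and at the 3′ end 0.849 and 0.432. Over the 57 coding positions the median level of the second group was 0.191, and over the 19 intronic positions it was 0.412. The medians of the first group there were 0.732 and 0.841. The largest difference, 0.574 with a standard error of 0.0856, was at 28008307 (deposited FDR 2.24e-07), a position in the printed stretch that is not on a CpG of the reference. At the start of Anks1-204 itself no position was listed: 75 tested positions between 28006627 and 28007814 are not in the table, and their levels are not known here.

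All 206 listed positions of Anks1 were higher in the first group, and 76 of the 79 with an FDR under 0.05 lay in its longest region. The region from 28010490 to 28010726, in the intron 3145 bp after the start of Anks1-204, had deposited levels of 0.819 and 0.453, and 1 of its 9 positions, not on a reference CpG, had an FDR under 0.05. The region from 27960947 to 27961021, also intronic, had 0.805 and 0.450 at 4 positions, none with an FDR under 0.05 (lowest 0.116). It lies inside Gm15597, an antisense RNA gene. Outside regions, 117 positions were listed and 2 had an FDR under 0.05, at 27994325 and 27994327, with differences of 0.354 and 0.329. Neither of these lies on a reference CpG, and the nearest listed reference CpGs, with the same levels, did not have an FDR under 0.05.

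Gcnt2 (ENSMUSG00000021360.16) spans 40859754 to 40960892 on the plus strand of chromosome 13. Its longest region, 40918372 to 40920100, is 1729 bp long with 72 cytosines, with deposited levels of 0.725 in the first and 0.250 in the second group, a difference of 0.475. The FDR was under 0.05 at 62 of its 72 positions. The region takes the last 430 bp of the first exon shared by Gcnt2-201 and Gcnt2-205, all of it coding, and 1299 bp of the intron after it. The first exons of Gcnt2-203, Gcnt2-202 and Gcnt2-201 each hold 919 bp of the 1203 bp of coding sequence in their transcripts. No position within 1000 bp of the starts of Gcnt2-203 and Gcnt2-202 was listed, and the same held for Gcnt2-204 and Gcnt2-206.

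In Gcnt2, too, both groups had higher levels at the 3′ end of the region than at its 5′ end. At the 5′ end of the region they were 0.420 and 0.120, and at the 3′ end 0.836 and 0.493. The difference was smallest at the 5′ end (FDR 0.293), 0.575 at its largest, at 40919077 (standard error 0.0867, FDR 3.63e-07), and 0.343 at the 3′ end (FDR 0.0539). The coding positions had medians of 0.587 and 0.128, and the intronic positions 0.798 and 0.297. The ranges of the groups over the whole region overlapped, since the highest level of the second group (0.493) was above the lowest of the first (0.420). They did not overlap within the coding or within the intronic part, in a region chosen by its difference. The start itself was not listed, with 314 tested positions between 40909479 and 40918372 left out of the table. The antisense RNA gene Gm31683 starts 245 bp from the start of Gcnt2-205 and 477 bp from the region.

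A second region of Gcnt2 with many cytosines went the other way. From 40939918 to 40940545, in the intron 6187 bp before the start of Gcnt2-204, the deposited levels were 0.313 in the first and 0.859 in the second group, a difference of -0.545. Of its 35 positions, 34 had an FDR under 0.05. Unlike the longest region, this one had a nearly flat second group, between 0.838 and 0.867 at every position, while the first group lay between 0.271 and 0.460. The next stretch is from that region, chosen by the same rule and shown because its 10 CpGs differ in the opposite sense.
Gcnt2 intron, chr13:40940063-40940262, plus strand: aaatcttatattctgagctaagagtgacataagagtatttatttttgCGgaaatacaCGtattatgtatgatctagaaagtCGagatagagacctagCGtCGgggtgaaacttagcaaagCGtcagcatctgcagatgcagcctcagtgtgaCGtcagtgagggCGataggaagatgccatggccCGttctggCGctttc
Its levels were 0.284 to 0.298 in the first group against 0.852 to 0.864 in the second. The remaining regions were higher in the first group: an intronic one from 40928387 to 40928489 with levels of 0.654 and 0.331, and one from 40967648 to 40967793, with 0.703 and 0.314. The latter lies 6756 bp past the end of Gcnt2, inside the antisense RNA gene A730081D07Rik. None of their positions, 7 and 12, had an FDR under 0.05. In all, Gcnt2 had 63 positions with an FDR under 0.05 that were higher and 34 that were lower in the first group.

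Sorbs3 (ENSMUSG00000022091.6) spans 70180468 to 70211989 on the minus strand of chromosome 14. Its longest region, 70205858 to 70207245, is 1388 bp long with 140 cytosines, with deposited levels of 0.136 in the first and 0.587 in the second group, a difference of -0.450. The FDR was under 0.05 at 101 of its 140 positions. All 101 lay before the start of Sorbs3-203 at 70206022, in sequence that is intronic to the transcripts that begin further upstream. The 24 positions in the first exon of Sorbs3-203, a UTR, had medians of 0.147 and 0.441 and no FDR under 0.05. Sorbs3-201 starts 392 bp upstream of the region, Sorbs3-202 starts 1235 bp downstream of it, and Sorbs3-204 has the most upstream start, 4744 bp away. The transcripts encode proteins of different lengths, with 2199 bp of coding sequence in Sorbs3-201 and 2040 bp in both Sorbs3-203 and Sorbs3-202.

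The first group was near its lowest level over most of the Sorbs3 region, with a median of 0.110 over all positions and of 0.107 over the 116 before the start. The second group fell along the gene towards the start, from 0.794 at the 5′ end to 0.421 at its lowest, 70205993, which is 29 bp after the start. The largest difference, -0.618 with a standard error of 0.0751, was at 70206642 (FDR 8.59e-12). At the 5′ end the first group was also higher, at 0.416, and the difference there was -0.379 (FDR 0.256). The lowest level of the second group was above the highest of the first by only 0.00521, in a region chosen by its difference. The antisense RNA gene Gm49417 has a start on either side, 506 and 534 bp from the region, and runs across it.

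Outside its regions Sorbs3 had 80 listed positions that were lower in the first group and 12 that were higher. The 22 that adjoin the longest region downstream, from 70205704 to 70205857, were all lower, with medians of 0.191 and 0.457 and no FDR under 0.05. Further along, around the start of Sorbs3-202 all 11 listed positions were higher in the first group, with medians of 0.683 and 0.388 and 1 FDR under 0.05, at 70204644 (0.781 and 0.388, FDR 0.0340). A second region, from 70191879 to 70192087, was lower in the first group. Its deposited levels were 0.132 and 0.424 over 30 cytosines, nearly all in an intron, with no FDR under 0.05 (lowest 0.203). It holds 6.70 CpGs per 100 bp, more than the longest region of Sorbs3 (4.39), and lies 12536 bp from the nearest start.

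Kcnip3 (ENSMUSG00000079056.12) spans 127456498 to 127522094 on the minus strand of chromosome 2 and had a single region, 127481835 to 127482599. That region is 765 bp long with 142 cytosines, with deposited levels of 0.176 in the first and 0.614 in the second group, a difference of -0.438. The FDR was under 0.05 at 119 of 142 positions. It covers the whole first exon of Kcnip3-202, which is 495 bp long with 103 bp of coding sequence, together with 270 bp around it, of which 100 bp lie before its start at 127482499 and the rest in the intron after it. The other protein-coding transcripts, Kcnip3-201 and Kcnip3-203, start at 127521370 and hold 852 and 768 bp of coding sequence, against 690 bp in Kcnip3-202.

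Both groups had their lowest levels of the region before the start of Kcnip3-202. At the 5′ end of the region the levels were 0.0921 and 0.427, and at the 3′ end 0.404 and 0.751. The 92 positions in the UTR of that exon had medians of 0.133 and 0.623, with 91 of them past the FDR limit. The 7 coding positions had 0.252 and 0.699, all past it. Before the start, 7 of 20 positions were past it, with medians of 0.0940 and 0.462. The largest difference was -0.490, with a standard error of 0.0948 at 127482254 (FDR 0.000657). The levels of the groups did not overlap in the region, which was chosen by its difference. The lowest level of the second group was 0.0225 above the highest of the first. The RefSeq promoter of this start is printed without its last 50 bases, which are UTR, because the difference runs into it.
Kcnip3 promoter, chr2:127482500-127482749, minus strand: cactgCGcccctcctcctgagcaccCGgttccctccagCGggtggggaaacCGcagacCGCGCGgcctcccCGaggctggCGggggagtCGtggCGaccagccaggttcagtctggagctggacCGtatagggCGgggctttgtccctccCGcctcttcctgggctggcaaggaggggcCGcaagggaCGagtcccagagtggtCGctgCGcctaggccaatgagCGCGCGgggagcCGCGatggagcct
All its 23 CpGs were listed, and its listed positions had levels between 0.0834 and 0.0971 in the first group, against 0.341 to 0.476 in the second. The FDR was under 0.05 at 7 of 47 listed positions, and the region takes in its last 100 bases.

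Near the upstream starts of Kcnip3 the direction was the opposite. Between 127518953 and 127520878, in the first part of the gene, 34 positions were listed and all were higher in the first group, with medians of 0.498 and 0.179. An FDR under 0.05 was given for 2 of them, the adjacent positions 127520093 and 127520094, both with levels of 0.756 and 0.259. Of these 34 positions, 9 lay within 1000 bp of the shared start of Kcnip3-201 and Kcnip3-203, and none within 1000 bp of that of Kcnip3-204. None of the 9 had an FDR under 0.05. The remaining 64 listed positions outside the region were all lower in the first group, and none had an FDR under 0.05.

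**Figure D2:**
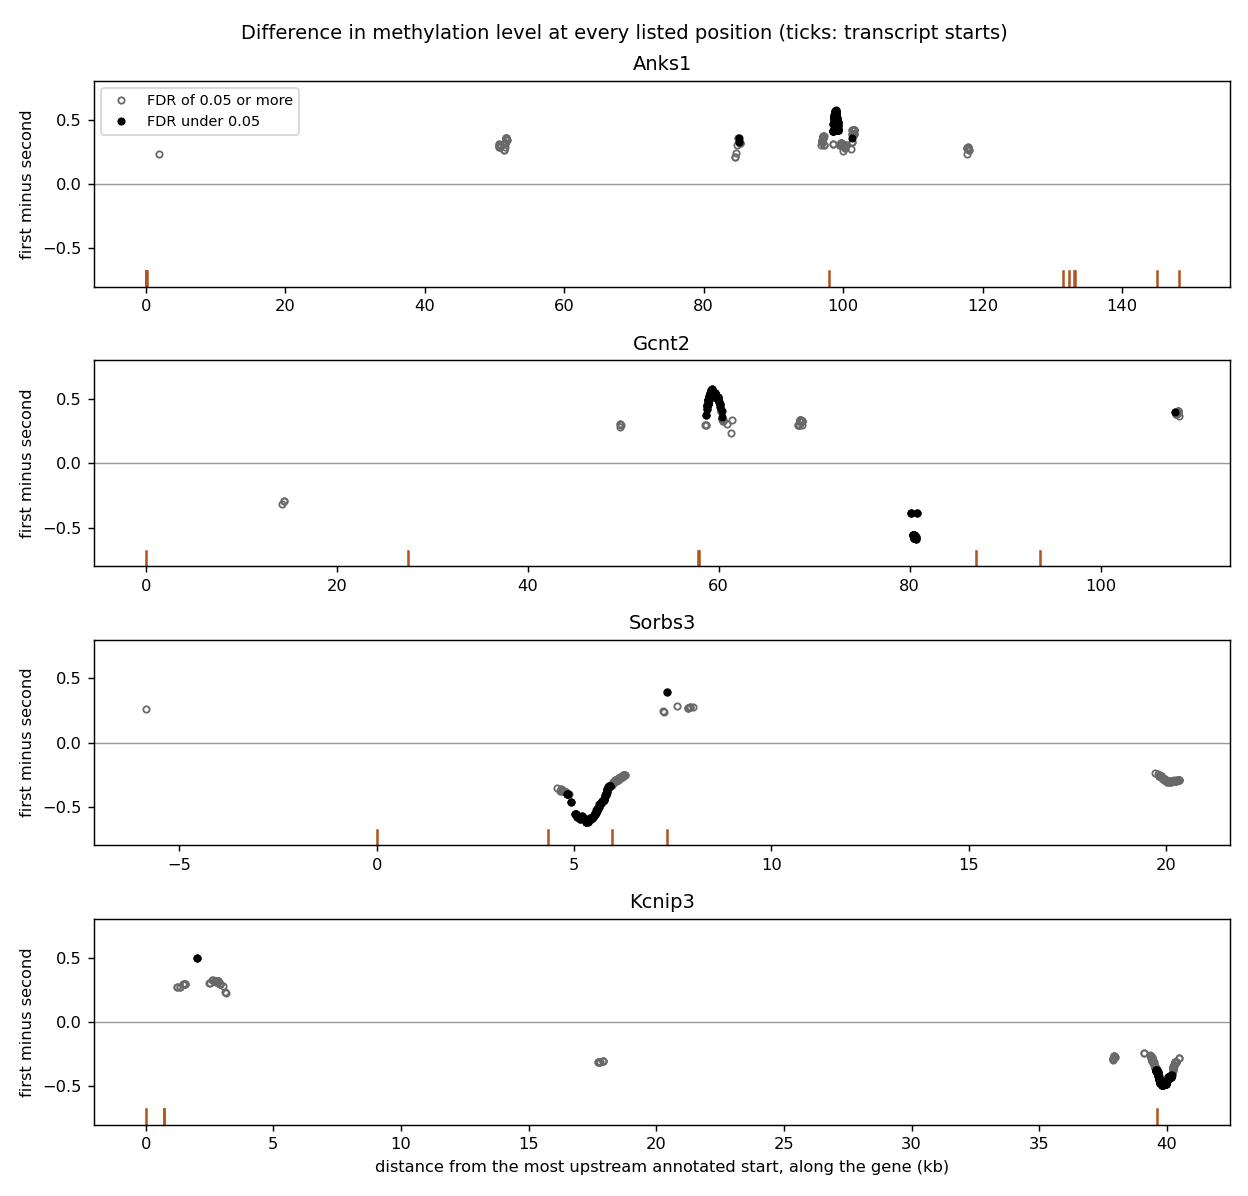
Difference in methylation level (first minus second group) at each of the 871 listed positions against the distance in kb from the most upstream start, along the gene, with filled points for an FDR under 0.05 and ticks for transcript starts. Filled points gather at 1 place in Anks1, Sorbs3 and Kcnip3 and at 2 places of opposite sign in Gcnt2.

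Most of the positions past the FDR limit of each gene lay in its longest region. With an FDR under 0.05 there were 79 positions in Anks1, 97 in Gcnt2, 102 in Sorbs3 and 121 in Kcnip3, or 399 of 871 (45.8%) against 18.7% of all listed positions. This share follows from the choice of the genes. The longest region held 96.2% of those of Anks1, 63.9% of those of Gcnt2, 99.0% of those of Sorbs3 and 98.3% of those of Kcnip3. The longest regions make up between 0.450% (Anks1) and 2.69% (Sorbs3) of the stretch examined. Outside all 10 regions, 344 positions were listed and 6 had an FDR under 0.05. Because the genes were chosen for their regions, the shares inside and outside the regions also follow from the choice.

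The most upstream starts had fewer listed positions near them than the starts at the regions. The genes were chosen for these regions, so this contrast follows largely from the choice. In Anks1 the upstream start was the more CpG-rich. Starts within 1000 bp of each other were taken as 1 group, which gave 16 groups. The group at the upstream end of Anks1 had 9.90 CpGs per 100 bp within 500 bp, the highest of the 16, and no listed position within 1000 bp. It lies among 3875 tested positions, from 27809237 to 27911159, that were not listed. The start of Anks1-204 had 3.10 CpGs per 100 bp and 64 listed positions, of which 50 had an FDR under 0.05. Taf11, on the minus strand, overlaps the upstream end of Anks1. Its 5′ end, at 27909844, lies inside the window that gave 9.90 CpGs per 100 bp. Tcp11 and Uhrf1bp1 lie within 10000 bp of Anks1. No region reached any of these genes.

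In Gcnt2, the group of Gcnt2-201 and Gcnt2-205 had 4.10 CpGs per 100 bp, against 2.60 and 3.10 at Gcnt2-203 and Gcnt2-202. In Sorbs3, the start of Sorbs3-203 had 5.59, against 1.80 at Sorbs3-201, 1.50 at Sorbs3-202 and 1.20 at Sorbs3-204. In Kcnip3, the start of Kcnip3-202 had 7.29 and the upstream group 1.80. In these 3 genes the start at the region was the one with the most CpGs of its gene. The genes were chosen for CpG-rich regions, and the starts of Sorbs3-203 and Kcnip3-202 lie inside them. The high density at those starts thus follows in part from the choice. Pdlim2 and Ppp3cc beside Sorbs3 and Prom2 beside Kcnip3 had no region within the stretch examined.

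**Figure D3:**
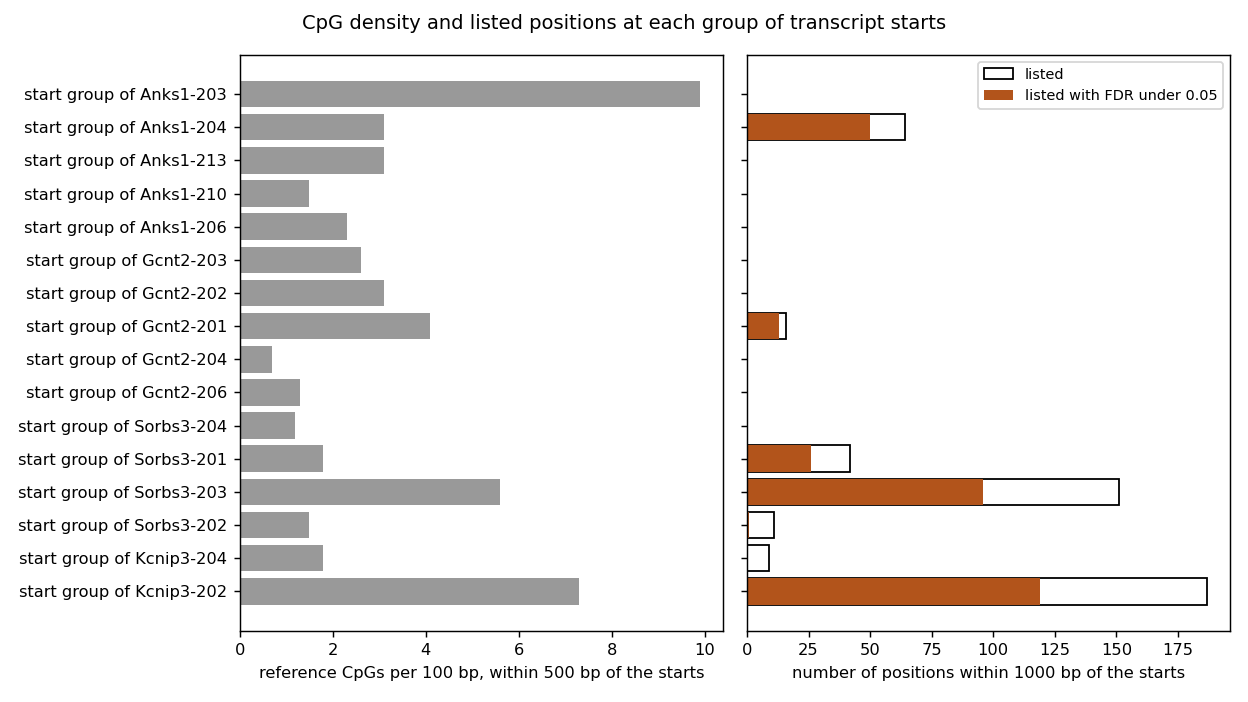
CpGs of the reference per 100 bp within 500 bp of each of 16 groups of transcript starts (left), and the number of listed positions within 1000 bp (right, open bars), of which filled bars had an FDR under 0.05. Kcnip3-202 had the most listed positions (187) and Sorbs3-203 the next (151), while the most CpG-dense group, that of Anks1-203, had none.

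Being CpG-rich was part of the choice of the genes, and by density it applied to 3 of the 4. The longest regions held 8.50 CpGs per 100 bp in Kcnip3, 4.39 in Sorbs3 and 4.10 in Anks1, at percentiles 99.3, 93.6 and 92.3 of all regions. The region of Gcnt2 held 1.91, close to the median of all regions (1.89) and below that of regions with at least 30 cytosines (2.73). It had many cytosines because it is long. The ratio of observed to expected CpGs was 0.701 in Kcnip3, 0.502 in Sorbs3, 0.408 in Anks1 and 0.358 in Gcnt2, with a median of 0.341 over all regions. GC content was 69.7%, 59.3%, 63.5% and 46.2% in the same order, with a median of 48.2%.

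By number of cytosines the longest regions of Kcnip3 and Sorbs3 ranked 2 and 3 of 3389, and those of Anks1 and Gcnt2 13 and 16. By size of the difference they were less extreme, with ranks of 1120, 935, 409 and 634. Ordered within each direction, Anks1 and Gcnt2 ranked 3 and 4 by area score, with 402 and 385, among those with a positive difference, and the next region, outside these genes, had 331. Among those with a negative one, Sorbs3 and Kcnip3 ranked 3 and 4, with -758 and -656, and the next had -648. The genes were chosen with these values in view, so the ranks are not a result about them.

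The authors' region calls take every tested position between their ends. In each of the 10 regions the number of listed positions equalled the number of cytosines counted and the number of rows tested between its ends. Neighbouring positions shared levels, so the 76 positions of Anks1 hold 31 separate pairs of levels, the 72 of Gcnt2 hold 27, the 140 of Sorbs3 hold 70 and the 142 of Kcnip3 hold 72. Of the listed positions, 84.2% in Anks1, 91.7% in Gcnt2, 87.1% in Sorbs3 and 91.5% in Kcnip3 lay on a CpG of the reference, against 78.0% of all listed positions. All reference CpGs of the 4 longest regions were listed.

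**Figure D4:**
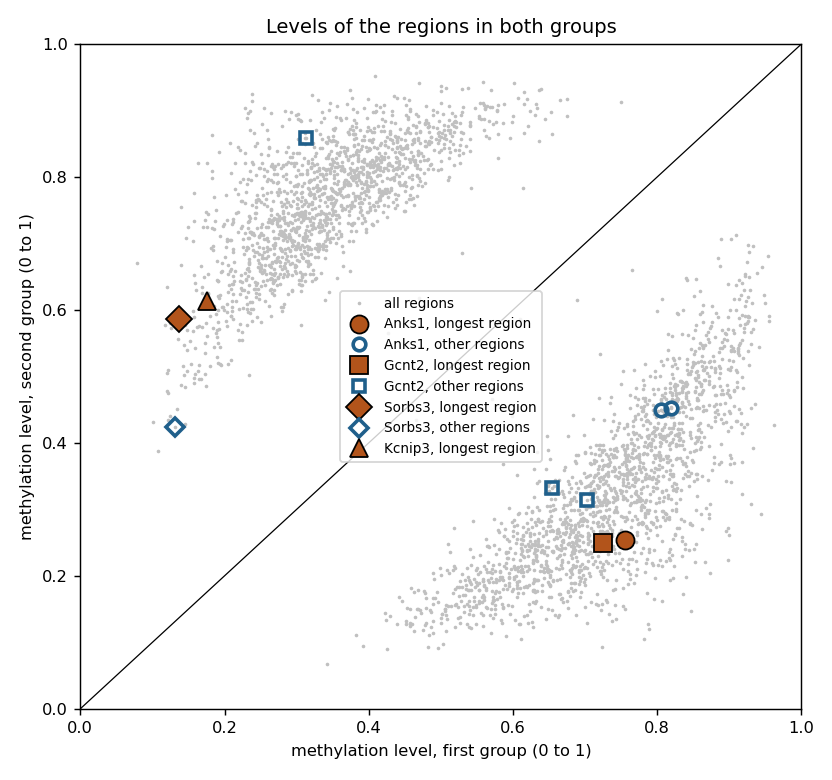
Deposited level of each region in the second group against the first, both from 0 to 1, for all 3389 regions (dots) and the 10 regions of the 4 genes (symbols), with the line of equal levels. The longest regions of Anks1 and Gcnt2 lie together below the line. Those of Sorbs3 and Kcnip3 lie together above it, at low levels in the first group. Also above the line are 1 other region of Gcnt2 and the other region of Sorbs3.

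By level the longest regions fell into pairs that follow the direction of their difference. In the longest regions of Anks1 and Gcnt2 the lower group, the second, had 0.255 and 0.250, and the higher had 0.756 and 0.725. In Sorbs3 and Kcnip3 the lower group, the first, had 0.136 and 0.176, and the higher had 0.587 and 0.614. Among regions with at least 30 cytosines, the median levels were 0.725 and 0.261 for the 115 higher in the first group, and 0.284 and 0.746 for the 138 lower.

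The composite element that IRF8 binds with ETS factors such as PU.1, searched as GGAANNGAAA on both strands, was in none of the 10 regions. It was in 9.38% of all regions, in 2.16% of those higher and in 17.6% of those lower in the first group. Among regions with at least 30 cytosines, it was in 6.09% of those higher and in 20.3% of those lower. The element GAAANNGAAA, bound by IRF factors alone, which can overlap the first, was in 1 of the 10, the Gcnt2 region lower in the first group, and in 4.84% of all regions. The composite element was in none of the 8 RefSeq promoters of Anks1, Gcnt2 and Kcnip3, and in 2.72% of the 32851 promoters of that table. Such a match describes letters in a window and not binding.

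Of the genes related to these 4 by family or partnership, 5 of 23 (21.7%) had a region within 10000 bp, against 9.19% of all protein-coding genes. The count does not allow for gene length. In the families, 1 of 12 had one: Gcnt1, the core branching enzyme of O-glycans, with 3 regions, all higher in the first group by 0.354 to 0.503. The FDR was under 0.05 at 2 of 11, 4 of 5 and 2 of 7 of their positions. No region lay near Anks1b, Anks3, Anks4b or Anks6, near Gcnt3, Gcnt4 or Gcnt7, near Sorbs2, or near Kcnip1, Kcnip2 or Kcnip4. A listed position with an FDR under 0.05 was present at 5 of these 12 genes and at 7 of the 11 partners, against 30.7% of all protein-coding genes, again with no allowance for gene length.

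Among the partners, 4 of 11 had a region. B4galt1 and B3gnt2, which build the chain that Gcnt2 branches, were higher in the first group. The B4galt1 region (chromosome 4, 40828890 to 40829112) had deposited levels of 0.749 and 0.220, with an FDR under 0.05 at all 20 positions. The B3gnt2 regions, on chromosome 11, had 0.603 and 0.134 from 22835242 and 0.525 and 0.184 from 22848607, with an FDR under 0.05 at 18 of 19 and 2 of 13 positions. In Epha2, a receptor of the Eph family, a region on chromosome 4 (141326520 to 141326866) had 0.451 and 0.908 and 6 of 19 positions past the limit. Kcnd3, a Kv4 channel, had 1 region with a single position past it and a difference of -0.465. Pdyn had no listed position.

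The most alike regions were sought among the other regions of at least 30 cytosines that hold an internal start and go the same way, by the sum of the absolute differences in both levels. The longest regions of Anks1 and Gcnt2 hold no start themselves, so for these genes the comparison is with regions of another kind. For Anks1 the nearest of 10 were in Kdelc2 (0.785 and 0.275, sum 0.0497) and Sash1 (0.768 and 0.189, sum 0.0788). For Gcnt2 they were in Foxp1 (0.691 and 0.205, sum 0.0778) and Kdelc2 (sum 0.0853). For Sorbs3 and Kcnip3 only 4 regions met the rule, and the nearest to both were in Gsn (0.228 and 0.630, sums 0.135 and 0.0678) and Adgrg1 (0.240 and 0.690, sums 0.207 and 0.140). These regions, too, had an FDR under 0.05 at most of their positions. No share over all regions of at least 30 cytosines is set beside this, so it is not a sign of likeness. The counts were 35 of 37 in Kdelc2, 115 of 115 in Sash1, 33 of 39 in Foxp1, 69 of 87 in Gsn and 46 of 65 in Adgrg1. Levels of 2 groups are a thin measure of likeness.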

How the data were processed

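DNA methylation was measured in 4 samples of sorted microglia, 2 WT and 2 IRF8KO, and grouped by the sample titles. Trim Galore, Bismark and mm10 are named in the submitters' processing notes, without versions; which program called the differences is not given in the sources used here. Per the file headers, the authors' site table holds levels per group (fractions), a difference, its standard error and a test statistic (score). It also holds dispersions, p-values, FDR values and a posterior probability that the difference is over a threshold. That probability was at least 0.95 at the listed positions, so the list holds only positions judged to differ. The authors' region table holds mean levels (fractions), counts of cytosines and an area score. The number of per-sample columns not used was 0. Neither table gives depth, so no interval was computed and no replicate could be compared.

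Rows inside the genes or within 10000 bp (GENCODE vM21, GRCm38) were taken with Python 3.11.15, pandas 2.3.3 and pysam 0.24.0. Coordinates count from 1. Row numbers of the site table follow position and were used as an index of tested positions. Transcripts, exons and UTRs are those of GENCODE; promoters are of RefSeq on GRCm38.p6, with 250 bases before and 50 after a start, and 3 of the 4 genes matched. Positions with a deposited FDR under 0.05 were counted as past the limit; no test was added. The counting steps were tested on simulated data. Named genes were the 4 members, genes of fixed family and partner lists with a region, protein-coding genes in the flanks, and the 2 most alike regions per member; 2 genes of these lists are not reported here and are left out of their counts; other family members and partners without a region were named after their values were seen. Members and lists were chosen with earlier results of these data known. Alternatives changed the distance, the FDR limit, the positions counted, the transcripts and the stretch measured.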

Additional observations from a re-analysis of the deposited data

How the results depend on the processing

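Of 78 alternatives, 64 left the value within 1.5 times the count or within the median standard error of the difference, and no difference reversed. All listed positions of a longest region differed in the same direction, so no median over them could have reversed. Requiring an absolute difference of at least 0.3 changed no count of positions past the FDR limit. No paired analysis was possible because both tables give levels of whole groups only, and leaving out each replicate was not run for that reason. The regions of Anks1 fell from 3 to 1 with at least 10 and with at least 30 cytosines, and those of Gcnt2 from 4 to 2 with at least 30. With an FDR under 0.001, the positions of Anks1 fell from 79 to 47 and those of Kcnip3 from 121 to 40. With both strands of a CpG counted once, they fell to 32 in Anks1, 46 in Gcnt2, 46 in Sorbs3 and 57 in Kcnip3; this setting merges the strands and also drops positions off a reference CpG, which alone left 64, 90, 88 and 110. Starts counted within 1000 bp of the longest region rose from 0 to 1 in Anks1 and from 0 to 2 in Gcnt2. Sorbs3 rose from 1 to 2 within 500 and within 1000 bp. Related genes with a region rose from 5 to 8 within 50000 bp. The fitted levels are smoothed over neighbours and their depth is unknown, so the counts of positions are not counts of separate differences, and levels at tested positions that were not listed are not known here.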
